A study of Homo sapiens with 6 samples.

Results

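The suppressor of cytokine signalling (SOCS) family was examined in U87MG cells, an established human glioblastoma line, with and without added LMO2, which encodes a LIM-domain adaptor protein. The 8 family genes, SOCS1 to SOCS7 and CISH, were taken by gene symbol and Entrez gene ID from 27257 genes with counts in at least 1 library, and all 8 had counts in all 6 libraries. RNA-seq was performed on 3 libraries of cells that had received a control lentivirus for 24 h, called U87MG-control, and on 3 libraries of cells that had received an LMO2 lentivirus for 24 h, called U87MG-LMO2. Both groups were grown in serum-containing DMEM, and the study's methods give pLL-CMV-puro, a vector with the CMV promoter, for LMO2. The labels do not say whether the replicates were separate cultures, so the p-values measure only the spread between these libraries, which may be technical. The comparison asked which family genes differed between the groups, and whether SOCS3 moved alone.

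Several SOCS family proteins, among them CISH and SOCS3, are induced by cytokine signalling and turn it down again. They form a classical negative feedback loop on JAK kinases and STAT transcription factors. Each family protein has a central SH2 domain, which binds phosphotyrosine on receptors or kinases, and a C-terminal SOCS box. The SOCS box joins elongins B and C and a cullin to form a ubiquitin ligase. SOCS1 and SOCS3 also carry a short region that inhibits JAK kinases directly, and SOCS3 acts at gp130, the shared receptor subunit of the IL-6 cytokines, from which STAT3 is activated.

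The promoter windows of CISH and SOCS3 are shown because they were the windows of the family in which the letters of STAT elements were found. STAT dimers classically bind palindromes of the form TTCNNNGAA, with a shorter spacing TTCNNGAA and a longer spacing TTCNNNNGAA also known. These motifs read the same on both strands. RefSeq windows of the build GRCh38.p14, from 250 bases before to 50 bases after a start site, were given for 5 of the 8 genes, namely SOCS1, SOCS3 (with 2 start sites), SOCS4, SOCS6 and CISH, whereas SOCS2, SOCS5 and SOCS7 are named only. The CISH window lies at chr3:50611725-50612024 on the minus strand, and the SOCS3 window lies at chr17:78360876-78361175 on the minus strand. Both are printed 5′ to 3′, with the matched letters in capitals.
CISH: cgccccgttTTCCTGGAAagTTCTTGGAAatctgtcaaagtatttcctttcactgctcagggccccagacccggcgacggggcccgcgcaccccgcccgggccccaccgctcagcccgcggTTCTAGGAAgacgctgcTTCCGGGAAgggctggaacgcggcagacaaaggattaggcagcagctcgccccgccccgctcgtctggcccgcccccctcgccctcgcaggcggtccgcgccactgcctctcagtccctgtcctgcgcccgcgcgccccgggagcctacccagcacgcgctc
SOCS3: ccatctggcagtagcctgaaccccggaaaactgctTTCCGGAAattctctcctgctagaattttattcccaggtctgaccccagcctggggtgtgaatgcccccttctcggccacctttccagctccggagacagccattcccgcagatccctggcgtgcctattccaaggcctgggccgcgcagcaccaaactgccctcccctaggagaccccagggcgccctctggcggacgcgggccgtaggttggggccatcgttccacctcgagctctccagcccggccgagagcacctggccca

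CISH, a feedback inhibitor known as a STAT5 target, held 4 copies of TTCNNNGAA. They were TTCCTGGAA, TTCTTGGAA, TTCTAGGAA and TTCCGGGAA, with first bases 241, 230, 129 and 112 bases upstream of the start site. Of 35116 RefSeq promoter windows, 7.66% held at least 1 copy of this motif, 0.456% held at least 2 and 7 windows (0.0199%) held at least 4. The SOCS3 window held 1 copy of TTCNNGAA, the sequence TTCCGGAA, 215 bases upstream of its start site, and 7.74% of all windows held that motif. This start site lies 848 bases upstream of the SOCS3 gene start in GENCODE v29. The second SOCS3 window, whose start site lies 410 bases downstream of the GENCODE gene start, and the windows of SOCS1, SOCS4 and SOCS6 held none of the 3 spacings. Neither SOCS3 window reaches the GENCODE gene start, so the bases directly upstream of that start were not searched. These matches describe letters in the windows, and no binding was measured here.

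LMO2 itself was higher in every U87MG-LMO2 library, which the labels give as treated with LMO2 lentivirus, than in any control. Its normalised read counts (CPM, the reads of a gene scaled to a common library size by the TMM method) were 0.607, 0.803 and 0.378 CPM in U87MG-control replicates 1 to 3 and 333.0, 307.0 and 877.9 CPM in U87MG-LMO2 replicates 1 to 3. The log2 fold change was 9.70 with an edgeR adjusted p of 4.13e-04. The controls held 11428432 to 13537284 expected counts in total and the LMO2 libraries 14630627 to 17892955, without overlap. Of the markers of the cell label, VIM, CD44, FN1, SPARC, NES and EGFR were measured at 40.2 CPM or more in every library. GFAP had no value among the genes kept for the analysis, and S100B, SOX2 and OLIG2 reached at most 1, 4 and 14 counts. SPARC was higher in U87MG-LMO2 (log2 fold change 0.81, edgeR adjusted p = 0.00787). Of the blood cell markers, HBB had no value among the genes kept, and the summed level of PTPRC, CD3E and CD14 was 0.605 to 0.803 CPM in U87MG-control and 0.904 to 1.04 CPM in U87MG-LMO2. The sums of the endothelial, epithelial and neuron markers with counts spanned 10.1 to 10.8, 2.26 to 2.80 and 25.7 to 33.2 CPM in U87MG-control and 9.88 to 10.6, 2.77 to 3.20 and 25.8 to 35.0 CPM in U87MG-LMO2. The part of these markers in the results below was not tested.

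SOCS3 was the most abundant family transcript in U87MG cells in both groups. Levels were compared between genes as FPKM, which is scaled to transcript length. In U87MG-control the order was SOCS3 (17.1 ± 0.653 FPKM, SD, n = 3), SOCS5 (8.09 ± 0.307), SOCS4 (4.21 ± 0.380), SOCS7 (3.15 ± 0.325), SOCS1 (2.36 ± 1.04), SOCS6 (2.25 ± 0.163), SOCS2 (0.833 ± 0.146) and CISH (0.317 ± 0.161). The control libraries of SOCS7 and SOCS1, and those of SOCS1 and SOCS6, overlapped, and the other neighbours in this order did not. In U87MG-LMO2 the order was the same, with SOCS3 at 29.5 ± 3.86 FPKM (SD, n = 3), SOCS5 at 7.66 ± 0.790 and SOCS2 at 1.63 ± 0.461. The mean of SOCS3 was 2.11 times that of SOCS5 in U87MG-control and 3.84 times in U87MG-LMO2. In the U87MG-LMO2 order, neighbours from SOCS4 down to SOCS2 overlapped, so that the rank of SOCS4, SOCS7, SOCS1, SOCS6 and SOCS2 was not resolved from one neighbour to the next.

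**Figure D1:**
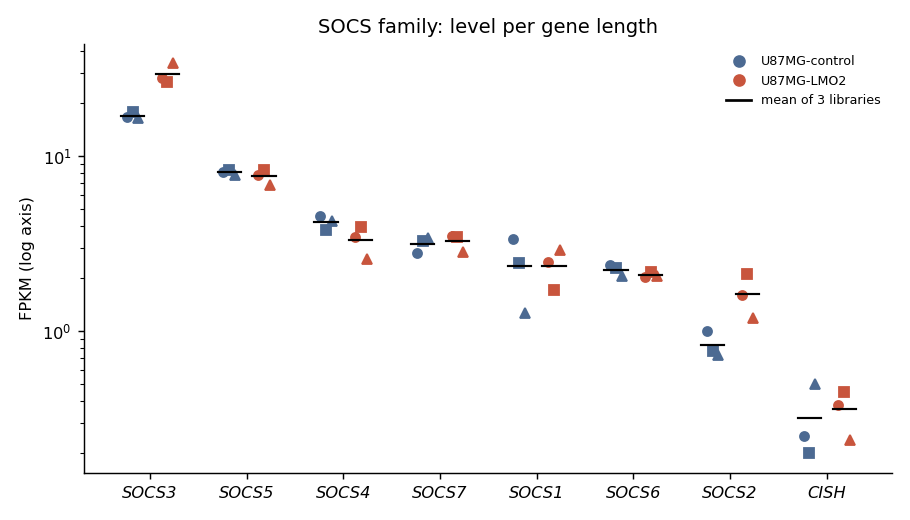
FPKM of the 8 SOCS family genes (log axis) in U87MG-control (blue) and U87MG-LMO2 (red) libraries, with circles, squares and triangles for replicates 1, 2 and 3 and a black line at the mean of 3 libraries. SOCS3 stood highest in both groups, at means of 17.1 and 29.5 FPKM, and CISH lowest, at 0.317 and 0.357 FPKM.

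As a share of the summed FPKM of the family, SOCS3 held 42.7%, 45.7% and 45.4% in the U87MG-control libraries and 56.7%, 54.5% and 64.5% in the U87MG-LMO2 libraries, and the groups did not overlap. The summed level of the 8 genes was 38.3 ± 1.43 FPKM in U87MG-control and 50.2 ± 2.03 FPKM in U87MG-LMO2 (SD, n = 3). Without SOCS3, the other 7 genes summed to 21.2 ± 1.22 FPKM and 20.7 ± 1.85 FPKM (SD, n = 3), and the groups overlapped. The larger family total in U87MG-LMO2 therefore lay in SOCS3.

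All 8 genes passed the filter on low counts and were tested with edgeR among 16092 genes. SOCS3 was the only family gene called at an adjusted p under 0.05, and it was higher in U87MG-LMO2. Among all genes tested, 4.72% were called higher, 2.75% were called lower and 7.48% were called in either direction. No family gene was called lower by edgeR, DESeq2 or limma, and 2 of the 8 (SOCS2 and SOCS3, both higher) had an unadjusted edgeR p under 0.05, against 25.7% of all genes tested. The CPM values of the groups did not overlap for 2 of the 8 genes, against 34.1% of all genes tested. The median log2 fold change was 0.08 over the 8 genes and -0.01 over all genes tested. RNA from whole cultures was measured. A change in the share of cells expressing a gene and a change in its RNA per cell therefore cannot be told apart.

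**Figure D2:**
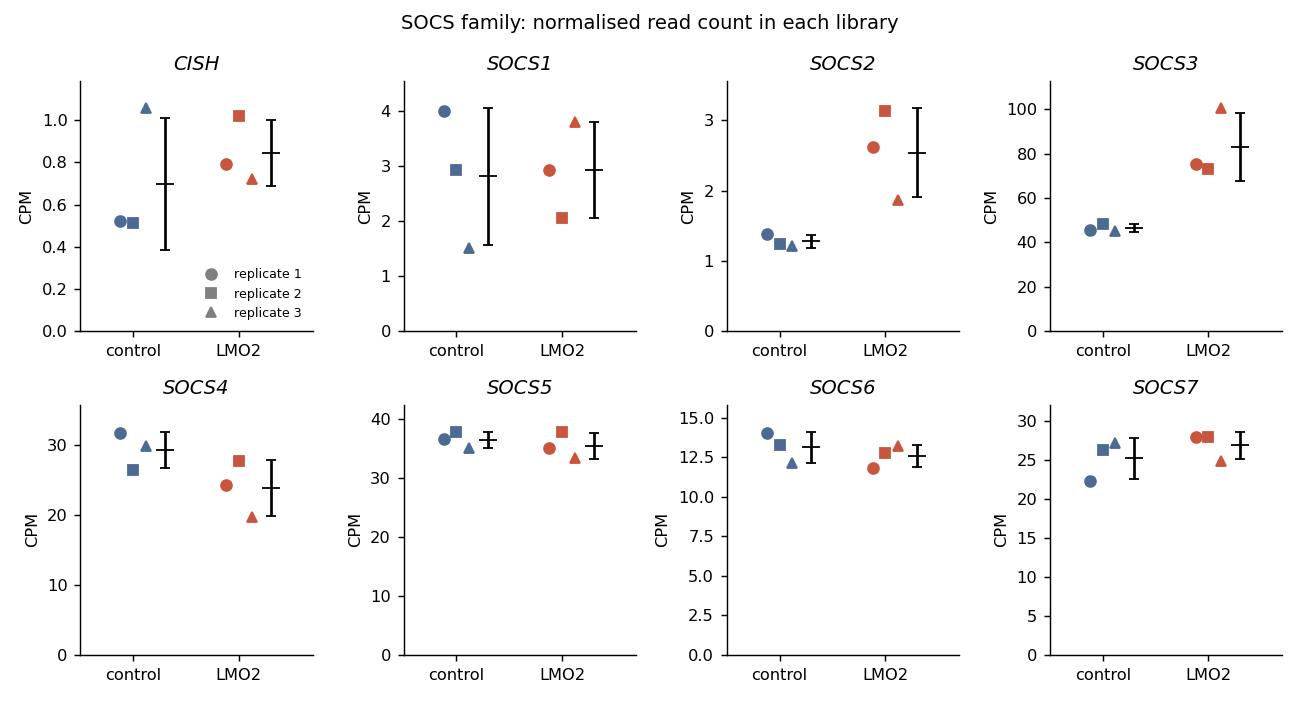
Normalised read count (CPM, linear axes from 0) of each SOCS family gene in the 3 U87MG-control libraries (blue) and the 3 U87MG-LMO2 libraries (red), with circles, squares and triangles for replicates 1, 2 and 3, and the mean and SD beside them. For SOCS2 and SOCS3 every U87MG-LMO2 library lay above every control, and for the other 6 genes the groups overlapped.

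SOCS3 (Entrez gene 9021, chr17:78356778-78360077 on the minus strand of GRCh38), the gp130 and JAK inhibitor, was at 45.7, 48.5 and 45.3 CPM in U87MG-control replicates 1 to 3 and at 75.5, 73.1 and 100.7 CPM in U87MG-LMO2 replicates 1 to 3. The 3 controls lay close together, replicate 3 was the highest of the LMO2 libraries, and the lowest LMO2 library was 1.51 times the highest control. These values rested on 527 to 664 counts per control library and 1073 to 1672 counts per LMO2 library. SOCS3 rose 1.79-fold, a log2 fold change of 0.84 with an SE of 0.14 and a 95% interval of 0.53 to 1.15 (edgeR adjusted p = 0.0130). Of all genes tested, 3.80% had a higher log2 fold change. The order of the LMO2 libraries was the same for SOCS3 as for LMO2 itself, with replicate 3 highest and replicate 2 lowest. Their total expected counts had this order too, at 17892955, 16142024 and 14630627 in U87MG-LMO2 replicates 3, 1 and 2. Whether these orders are linked was not tested. Without any 1 of the control libraries the call was lost, with a log2 fold change of 0.82 to 0.87 and edgeR adjusted p-values of 0.0693, 0.0613 and 0.0766 without replicates 1, 2 and 3. After a correction for GC content, which was 68.1% in SOCS3 transcripts, the log2 fold change was 0.51 (edgeR adjusted p = 0.0154).

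SOCS2 (8835, chr12:93569814-93583487 on the plus strand), best known as an inhibitor of growth hormone receptor signalling, was at 1.39, 1.24 and 1.21 CPM in the U87MG-control libraries and at 2.62, 3.14 and 1.87 CPM in the U87MG-LMO2 libraries. Every LMO2 library lay above every control, by a factor of 1.35 between the nearest pair, at 16 to 17 counts per control library and 31 to 46 counts per LMO2 library. Within U87MG-LMO2 its order was the reverse of that of SOCS3, with replicate 2 highest and replicate 3 lowest. The log2 fold change of SOCS2 was 0.98 with an SE of 0.27 and a 95% interval of 0.36 to 1.60, which missed the threshold (edgeR adjusted p = 0.0643). It passed the threshold in 2 alternatives, a filter that kept genes with 10 counts or more in each library (log2 fold change 0.99, edgeR adjusted p = 0.0499) and the fit without U87MG-LMO2 replicate 3 (log2 fold change 1.17, edgeR adjusted p = 0.0170). SOCS2-AS1, an antisense RNA with up to 202 bases of shared exon on the opposite strand, was at 0.244 CPM or less in every library, and the sources used here do not state whether counting used strand.

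**Figure D3:**
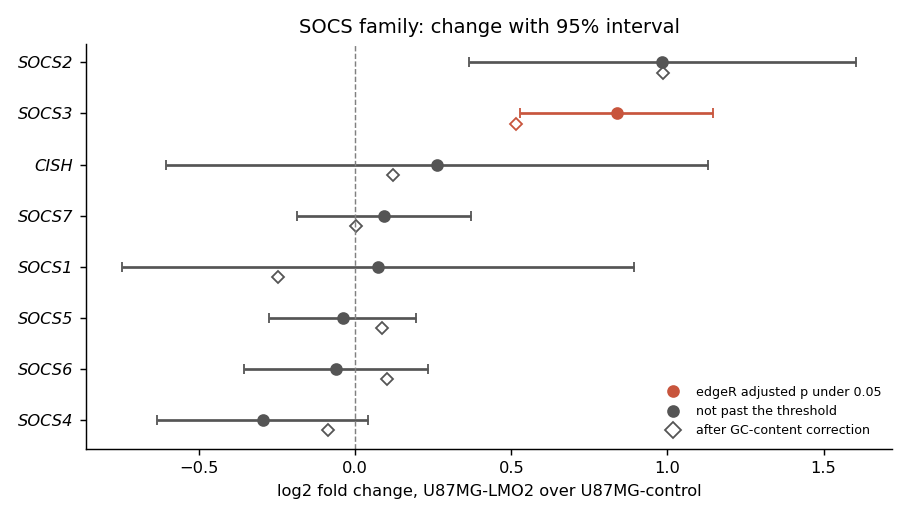
Log2 fold change of U87MG-LMO2 over U87MG-control for the 8 SOCS family genes, with filled points and 95% intervals from edgeR (3 libraries per group, red where the adjusted p was under 0.05) and open diamonds after a correction for GC content. The intervals of SOCS2 (0.36 to 1.60) and SOCS3 (0.53 to 1.15) lie above 0, and the other 6 include 0.

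SOCS1 (8651, chr16:11254405-11256200 on the minus strand), which inhibits JAK kinases and interferon signalling, was at 3.99, 2.92 and 1.51 CPM in the U87MG-control libraries and at 2.93, 2.05 and 3.80 CPM in the U87MG-LMO2 libraries. The groups overlapped over most of their range, on 20 to 63 counts per library. Its log2 fold change was 0.07 with a 95% interval of -0.75 to 0.89 (edgeR adjusted p = 0.915), so a change of the size fitted for SOCS3 lies inside the interval.

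CISH (1154, chr3:50606490-50611831 on the minus strand) was at 0.520, 0.511 and 1.06 CPM in the U87MG-control libraries and at 0.793, 1.02 and 0.722 CPM in the U87MG-LMO2 libraries. It rested on 6 to 15 counts per library, and its highest control lay above all 3 LMO2 libraries. Its log2 fold change was 0.26 with a 95% interval of -0.61 to 1.13 (edgeR adjusted p = 0.701), so that a change of the size fitted for SOCS3 also lies inside this interval. MAPKAPK3, which shares up to 218 bases of exon with CISH on the opposite strand, was at 210.4 to 287.4 CPM, far above CISH.

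SOCS4, SOCS5, SOCS6 and SOCS7, the members with long N-terminal regions, of which SOCS4 and SOCS5 are known for acting at the EGF receptor, were all measured on 160 counts or more in every library. SOCS4 (122809, chr14:55027230-55049488 on the plus strand) was at 31.6, 26.4 and 29.7 CPM in U87MG-control and at 24.2, 27.7 and 19.6 CPM in U87MG-LMO2. Replicate 2 of U87MG-LMO2 lay inside the control range and the other LMO2 libraries below it. The log2 fold change of SOCS4 was -0.30 with a 95% interval of -0.63 to 0.04 (edgeR adjusted p = 0.250).

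SOCS5 (9655, chr2:46698952-46780245 on the plus strand) was at 36.6, 37.8 and 35.0 CPM in U87MG-control and at 35.1, 37.9 and 33.4 CPM in U87MG-LMO2, with a log2 fold change of -0.04 and a 95% interval of -0.28 to 0.20 (edgeR adjusted p = 0.837). SOCS6 (9306, chr18:70288901-70330200 on the plus strand), known for binding the insulin receptor and KIT, was at 14.1, 13.3 and 12.1 CPM and at 11.8, 12.8 and 13.2 CPM, with a log2 fold change of -0.06 and a 95% interval of -0.36 to 0.23 (edgeR adjusted p = 0.796). SOCS7 (30837, chr17:38352228-38405593 on the plus strand), known for binding adaptor proteins through its SH2 domain, was at 22.3, 26.3 and 27.2 CPM and at 27.9, 28.0 and 24.9 CPM, with a log2 fold change of 0.09 and a 95% interval of -0.19 to 0.37 (edgeR adjusted p = 0.678). The groups overlapped for all 3, and the upper bounds of SOCS4, SOCS5, SOCS6 and SOCS7 lay below the lower bound of SOCS3, 0.53. After the correction for GC content the log2 fold change of SOCS3 was 0.515, itself below that bound. Those of SOCS4, SOCS5, SOCS6 and SOCS7 were then -0.088, 0.087, 0.10 and 0.002.

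A call in SOCS3 and none in another gene does not show that they differ, so the ratio of SOCS3 to each of the other 7 genes was compared between the groups, as log2 CPM of SOCS3 minus log2 CPM of the other gene in the same library. Against SOCS4, SOCS5, SOCS6 and SOCS7 every U87MG-LMO2 library had a higher ratio than every control, with differences of 1.13 (SE 0.30), 0.86 (SE 0.19), 0.88 (SE 0.14) and 0.73 (SE 0.22) on the log2 scale. Each of these 4 gave an exact permutation p of 0.1 (2-sided), the smallest that 3 against 3 libraries allow, and 0.175 after Benjamini-Hochberg adjustment over the 7 comparisons. The design therefore could not reach the threshold for any single ratio. The ratios were not recomputed with the correction for GC content.

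Against SOCS2 the ratio did not separate the groups. The log2 ratio of SOCS3 to SOCS2 was 4.91, 5.14 and 5.07 in U87MG-control and 4.78, 4.48 and 5.65 in U87MG-LMO2, a difference of -0.07 (SE 0.36, exact permutation p = 0.9, adjusted 0.9). The LMO2 libraries lay on both sides of the controls, with replicate 3 above and replicates 1 and 2 below them. Against SOCS1 the difference was 0.71 (SE 0.41, exact permutation p = 0.3, adjusted 0.42) and against CISH it was 0.53 (SE 0.40, exact permutation p = 0.4, adjusted 0.467), with overlapping groups in both. SOCS3 was therefore the single call of the family, and its ratio to SOCS2, SOCS1 or CISH did not separate the groups.

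**Figure D4:**
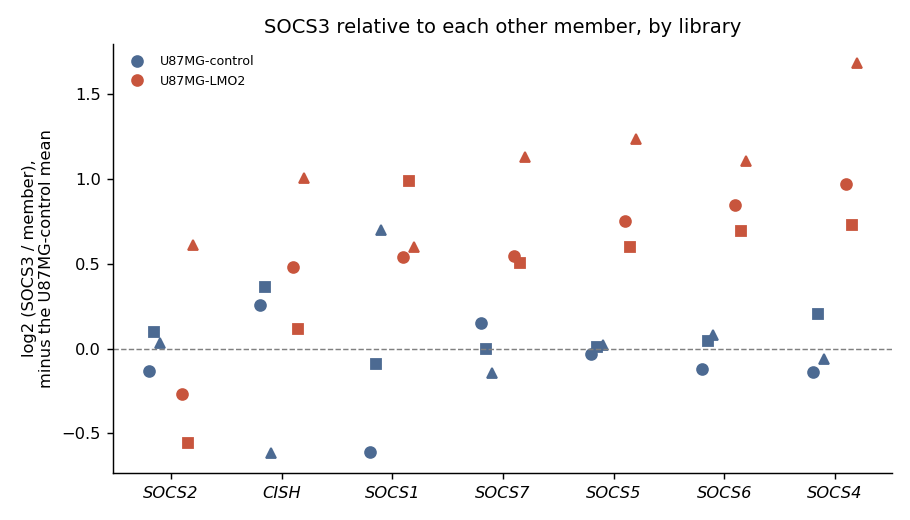
Log2 ratio of SOCS3 to each other family gene in every library, from CPM, minus the mean of the 3 U87MG-control libraries (blue, U87MG-control; red, U87MG-LMO2; circles, squares and triangles for replicates 1, 2 and 3; dashed line at the control mean). The groups were separate for SOCS4, SOCS5, SOCS6 and SOCS7 and overlapped for SOCS1, SOCS2 and CISH.

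The genes whose pattern was most like that of SOCS3 were ranked by the Pearson correlation of log2 CPM over the 6 libraries, as a description, among 15225 genes with a mean of at least 1 CPM. All points share the 2 groups and their difference in depth. The 5 highest were YIPF2 (r = 0.9996), SYVN1 (0.998), FBXL9P (0.998), LOC101928726 (0.997) and GYS1 (0.997). YIPF2 encodes a Golgi membrane protein, SYVN1 the ubiquitin ligase of endoplasmic reticulum quality control and GYS1 muscle glycogen synthase. Within the family, r with SOCS3 was 0.71 for SOCS2, which ranked 3015th, and ranged from -0.87 for SOCS4 to 0.29 for SOCS1 among the other 5 genes at this level.

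The machinery through which the SOCS box works held no edgeR call. Of 6 elongin and cullin partners, 0 were called by edgeR, against 7.48% of all genes tested. An unadjusted edgeR p under 0.05 was found for 1, against 25.7% of all genes tested, and the median log2 fold change was -0.13. CUL2, the cullin of the von Hippel-Lindau ligase, had the smallest adjusted p in this list (log2 fold change -0.46, edgeR adjusted p = 0.0794), followed by ELOC (-0.23), RBX1 (-0.20) and ELOB (0.18). The remaining partners, CUL5 and RNF7, had log2 fold changes of 0.06 and -0.05 (edgeR adjusted p of 0.833 and 0.812). CUL2 was called lower by DESeq2 and by edgeR without U87MG-LMO2 replicate 2 (adjusted p of 0.0439 and 0.0357). Of 18 other tested SOCS-box proteins, 0 were called by edgeR, DESeq2 or limma. In this list 2 had an unadjusted edgeR p under 0.05, against 25.7% of all genes tested, and the median was 0.14. The smallest edgeR adjusted p was that of SPSB2 (log2 fold change 0.43, adjusted p = 0.0703), whose protein targets inducible nitric oxide synthase. NEURL2 (0.61), ASB6 (0.19) and ASB13 (0.30) followed on the log2 scale.

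Among 11 tested inhibitors of JAK-STAT signalling outside the family, 1 was called by edgeR, against 7.48% of all genes tested. It was USP18, the interferon-induced protease that blocks the type I interferon receptor. USP18 was at 2.26, 2.34 and 3.48 CPM in U87MG-control and at 5.80, 6.61 and 4.16 CPM in U87MG-LMO2. It rose by 1.03 on the log2 scale (SE 0.26, edgeR adjusted p = 0.0471). The groups did not overlap, as for 34.1% of all genes tested, and the call was lost in 9 of the 14 alternatives. The next were CBL (-0.34, edgeR adjusted p = 0.0626), PIAS3 (0.30) and CBLB (0.33), and the median of the list was -0.04. CBL was called lower by DESeq2 and by edgeR without U87MG-LMO2 replicate 3 (adjusted p of 0.0405 and 0.0215).

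Ligands and receptors of the gp130 family signal through the subunit that SOCS3 binds. Of 5 tested ligands, 2 were called higher by edgeR, CLCF1 and CTF1, against 4.72% of all genes tested. The median log2 fold change of the ligands was 0.83. CLCF1, a ligand of the CNTF receptor, was at 35.7, 51.0 and 47.1 CPM in U87MG-control and at 83.7, 83.5 and 73.8 CPM in U87MG-LMO2 (log2 fold change 0.85, edgeR adjusted p = 0.0140). CTF1, cardiotrophin, was at 4.25, 4.45 and 3.78 CPM and at 6.77, 6.82 and 8.92 CPM (log2 fold change 0.85, edgeR adjusted p = 0.0323). IL6 had a log2 fold change of 0.83 with an SE of 0.53 (edgeR adjusted p = 0.362) at 0.984 to 4.52 CPM, and IL11 one of 0.30. The median of the ligands is the value of IL6, which was -0.04 without U87MG-LMO2 replicate 3. Of 6 tested receptors, 2 were called lower by edgeR, against 2.75% of all genes tested, and the median was -0.27. They were IL6ST, which encodes gp130, and LIFR, its partner for LIF. IL6ST was at 243.4, 180.1 and 184.0 CPM in U87MG-control and at 116.0, 115.0 and 133.9 CPM in U87MG-LMO2 (log2 fold change -0.73, edgeR adjusted p = 0.0207). LIFR was at 30.8, 22.0 and 25.7 CPM and at 16.8, 16.8 and 18.3 CPM (log2 fold change -0.59, edgeR adjusted p = 0.0443). IL27RA (-0.45) and IL6R (-0.09) did not pass the threshold. The calls of CLCF1, CTF1, IL6ST and LIFR were lost in 2, 6, 5 and 9 of the 14 alternatives. With the correction for GC content CLCF1 kept its call, whereas CTF1, IL6ST and LIFR lost theirs (edgeR adjusted p of 0.0592, 0.102 and 0.125).

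Of 10 JAK kinases and STAT factors, 0 were called by edgeR, DESeq2 or limma. An unadjusted edgeR p under 0.05 was found for 3, against 25.7% of all genes tested. STAT5A had the smallest adjusted p (log2 fold change 0.65, edgeR adjusted p = 0.0983), and the next were TYK2 (0.29), JAK2 (-0.43) and JAK3 (0.37). Of 15 tested receptors and adaptors known to bind SOCS proteins, 1 was called by edgeR, against 7.48% of all genes tested. It was PTK2, the focal adhesion kinase, which fell from 224.1, 195.6 and 215.9 CPM to 144.6, 140.3 and 153.3 CPM (log2 fold change -0.54, edgeR adjusted p = 0.0188). The PTK2 call was lost in 4 of the 14 alternatives. PRLR (-0.84, edgeR adjusted p = 0.0699), IFNGR2 (-0.49) and IRS1 (0.48) followed. PRLR was called lower by DESeq2 and by edgeR without the filter on low counts (adjusted p of 0.0371 and 0.0477), and IFNGR2 by edgeR without U87MG-LMO2 replicate 3 (adjusted p = 0.00497).

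SOCS3 is itself a classical STAT3 target, so 17 other tested STAT3 targets were set beside it. Of the STAT3 targets, 2 were called by edgeR, both higher, against 4.72% of all genes tested called higher. The median log2 fold change of the list was 0.14. PIM1, a serine kinase gene, was at 4.51, 4.89 and 4.24 CPM in U87MG-control and at 8.85, 6.82 and 7.65 CPM in U87MG-LMO2 (log2 fold change 0.77, edgeR adjusted p = 0.0346). IER3, an early response gene, was at 57.2, 31.8 and 35.4 CPM and at 63.9, 99.2 and 87.5 CPM (log2 fold change 1.01, edgeR adjusted p = 0.0393). MCL1 (-0.35) and BCL3 (0.37) did not pass the threshold. The call of PIM1 was lost in 8 of the 14 alternatives and that of IER3 in 7. Over the 8 lists, 5 of 88 tested genes (5.68%) were called higher and 3 (3.41%) lower, against 4.72% and 2.75% of all genes tested, and each of the 8 calls was lost in 2 to 9 of the 14 alternatives. Without U87MG-control replicate 3, or without U87MG-LMO2 replicate 1, 0 of the 88 genes were called by edgeR in either direction.

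**Figure D5:**
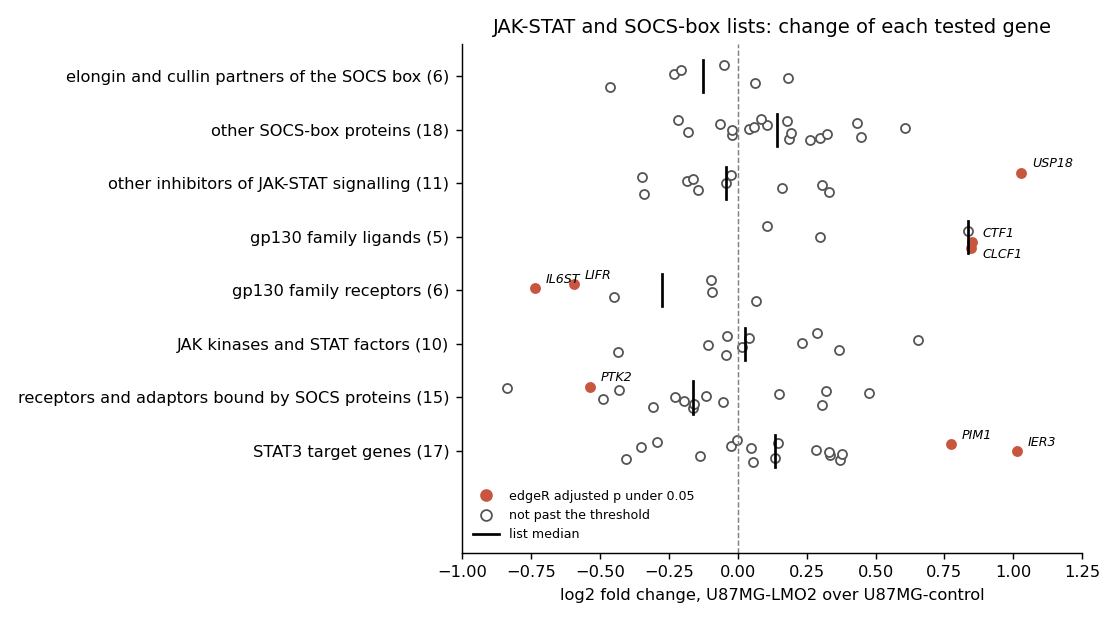
Log2 fold change of U87MG-LMO2 over U87MG-control (3 libraries per group, edgeR) for each tested gene of 8 lists around the SOCS family, with the number tested in brackets, red points for an adjusted p under 0.05 and a black line at each list's median. The ligand list had the highest median, 0.83, and the receptor list the lowest, -0.27. The ligand median is the value of IL6, which was not called and was -0.04 without U87MG-LMO2 replicate 3.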

How the data were processed

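RNA-seq of 3 U87MG-control and 3 U87MG-LMO2 libraries was analysed from the tables that the authors deposited. The expected counts deposited by the authors are unnormalized estimates of reads per gene, and the FPKM values deposited by the authors are scaled to gene length and mapped reads. Per the submitters' processing notes in the labels, Bowtie2, BWA and the build GRCh38.p12 were used, and the counting program and strand setting are not given in the sources used here. The authors' table of the comparison also holds a log2 ratio, a direction and a probability, which were not used. Its mean FPKM columns were compared with the libraries, and 132 of 27257 genes were left out because 3 lines of U87MG-LMO2 replicate 3 were unreadable. They held at most 0.353% of a library's counts and included no family gene.

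Expected counts were rounded and tested with edgeR 4.0.16 in R 4.3.3 (filterByExpr, TMM, glmQLFit and glmQLFTest, 2-sided, no block), with Benjamini-Hochberg adjustment over 16092 genes and a threshold of 0.05. The test was checked on simulated counts with the same dispersion (spread beyond counting noise) set for every gene, so the check does not cover the spread of these libraries. CPM used TMM-scaled library sizes. Ratios of SOCS3 to other genes were compared by an exact permutation test. Intervals are 95% and reflect the spread between libraries. Symbols came from a RefSeq table of GRCh38.p14 and matched 89.6% of genes, and positions and exon overlaps came from GENCODE v29 (GRCh38). The genes named were the 8 family genes, LMO2, up to 4 genes per list with the smallest adjusted p plus any called, and the 5 genes most correlated with SOCS3. CUL5 and RNF7 were added so that every elongin and cullin partner is given. The family, lists and tests were chosen with earlier results of these data known, and some listed genes are not reported here. Results were recomputed with DESeq2 1.42.0, with limma 3.58.1 on log2(FPKM + 1) or log2(FPKM + 0.1), with upper-quartile scaling, without the low-count filter, with a minimum of 10 counts per library, with a replicate block, and without each library in turn. A GC correction (GENCODE v29 transcripts, GC known for 89.9% of tested genes, lowess span 0.3) was added after seeing the data.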

Additional observations from a re-analysis of the deposited data

How the results depend on the processing

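SOCS3 kept a positive log2 fold change in all 14 alternatives, from 0.68 to 0.92 when 1 library was left out and from 0.51 (GC correction, added after seeing the data) to 0.84 in the others, and lost its call without any 1 control (0.83, 0.87 and 0.82 without replicates 1, 2 and 3). SOCS2 passed the threshold with at least 10 counts in every library (0.99), and ranged from 0.81 to 1.17 when 1 library was left out. The number of family genes called higher was 2 with the filter of 10 counts and 0 to 2 when 1 library was left out, and none was called lower in any alternative. The fit with the replicate block gave a SOCS3 log2 fold change of 0.82 (edgeR adjusted p = 0.0282) and a SOCS2 log2 fold change of 0.97 (edgeR adjusted p = 0.106), and called 387 genes higher and 189 lower among all genes and 1 list gene higher. Libraries that share a replicate number did not deviate together from their group means (correlations of -0.12, -0.00 and -0.04), so the numbers were not taken as pairs. DESeq2 called 685 of all genes lower and 6 list genes lower, limma called 3 list genes higher on log2(FPKM + 1) and 2 on log2(FPKM + 0.1), and the GC correction left 1 list gene higher and 1 lower. Leaving out 1 library gave 102 to 1307 genes higher and 42 to 1102 lower among all genes, and 0 to 5 list genes higher and 0 to 7 lower. Of the genes far from the threshold, SOCS1 reversed with the GC correction (-0.25) and ranged from -0.23 to 0.40 when 1 library was left out, and SOCS5 (0.087) and SOCS6 (0.10) reversed with the GC correction. SOCS5 ranged from -0.091 to 0.00035 when 1 library was left out. ELOB reversed with the GC correction (-0.014), and with 1 library left out the ranges were -0.034 to 0.29 for ELOB, -0.044 to 1.19 for IL6 and -0.25 to 0.023 for IL6R. The difference between SOCS3 and SOCS2 was 0.24 on log2(FPKM + 1) and -0.41 to 0.17 when 1 library was left out, that between SOCS3 and SOCS1 0.41 to 1.06, and that between SOCS3 and CISH 0.23 (without U87MG-control replicate 3) to 0.74. The CISH log2 fold change ranged from 0.08 to 0.70 when 1 library was left out. The cause of these changes was not tested. The filter of 10 counts removed CISH and LMO2, so they have no value there.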

Other observations

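The GC content of the family transcripts was 68.1% for SOCS3, 67.3% for SOCS1, 58.4% for CISH, 55.5% for SOCS7, 50.3% for SOCS2, 44.3% for SOCS5, 43.0% for SOCS6 and 39.9% for SOCS4. The expected counts of SOCS4 and SOCS7 were not whole numbers in any of the 6 libraries, and those of the other 6 genes were whole except for SOCS6 in U87MG-control replicate 3 (159.99). The transcript length behind the FPKM values was the same in every library for SOCS1 (1216 bases), SOCS3 (2737 bases) and SOCS7 (7978 bases). It ranged from 2128 to 2735 bases for CISH and from 1413 to 1689 bases for SOCS2.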
